A study of Macaca mulatta with 25 samples.

Results

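CGA encodes the alpha subunit of chorionic gonadotropin, the hormone by which a primate embryo keeps up progesterone output of the ovary. Of 25 RNA-sequencing libraries of rhesus macaque blastocysts, 4 held CGA at 500 or more counts per 1000000 counts (CPM), and the other 21 held it below 20 CPM. These 4, here called CGA-high and chosen by their measured CGA level alone, were the libraries C 8, C 11, C 12 and T 1, at 2863, 2314, 755 and 1033 CPM of CGA in that order. The 21 CGA-low libraries ran from 0.056 to 4.35 CPM, with a median of 0.574, so that no library lay near either threshold. The number after the letter is the replicate number of the labels. CGA itself chose the libraries and is left out of everything that follows. The contrast rests on a measured value, so all differences between CGA-high and CGA-low libraries are given as descriptions, with no test.

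Each library came from blastocysts made in vitro from eggs of female rhesus macaques that had been under treatment for 5 to 6 years from about 2.5 years of age, before puberty. Testosterone (T) females carried testosterone implants and ate standard chow, Western-style diet (WSD) females ate an obesogenic diet with 36% fat, and females with both had the implants and that diet (TWSD). Control (C) females had cholesterol implants and the chow, with 15% fat. All females were given gonadotropins before egg collection, and cumulus cells were stripped from the eggs. Eggs were fertilised with fresh semen of 4 fertile males, embryos were cultured to day 8 or until they were blastocysts, and the zona was removed before freezing. CGA-high libraries were 1 of 10 T, 0 of 8 WSD, 0 of 2 TWSD and 3 of 5 C libraries. The labels do not give the mother, the father, the day of collection, the embryo stage or the number of embryos of a library, so libraries may share parents or differ in stage, and whether they came from separate females is not known. Since treatment differs between the sides, the difference within controls (C 8, C 11 and C 12 against C 1 and C 2) and within testosterone (T 1 against the other 9 T libraries) is given beside the pooled one.

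As background, a primate blastocyst is built of trophectoderm, the outer epithelium that founds the placenta, and an inner cell mass that sorts into epiblast, which forms the embryo proper, and primitive endoderm, which lines the yolk sac. At implantation trophectoderm cells fuse into the syncytiotrophoblast, a layer that no longer divides, makes chorionic gonadotropin and steroids, and faces the maternal blood. Fusion uses envelope proteins of ancient retroviruses, the syncytins. Other trophoblast cells invade the uterine wall.

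Total counts ran from 14219054 to 27659266 in CGA-high and from 15005205 to 35544542 in CGA-low libraries, and 16834 to 19640 and 14247 to 21793 genes were detected. Among 14600 genes kept (at least 1 CPM in at least 4 libraries), the 4 CGA-high libraries correlated with each other at 0.745 on average (Pearson, log2 CPM, 6 pairs from 0.655 to 0.869) and with CGA-low libraries at 0.742. CGA-low pairs correlated at 0.869 on average. Pairs share libraries, and these values are descriptions over genes. C 8 and T 1 were the most alike of the 4, at 0.869, but C 8 correlated at 0.877 with the CGA-low library WSD 3. C 12 stood farthest out, with no correlation above 0.723 to another CGA-high and 0.675 to a CGA-low library. Of the genes at 10 CPM or more in all other 24 libraries, 118 were under 1 CPM in C 12, 10 in C 11, 1 in T 1 and 0 in C 8. A CGA-low library, TWSD 2, had 156 such genes, and C 12 and TWSD 2 had the lowest scaling factors (0.708 and 0.737). The summed level of Y-linked genes was 477, 361, 0.468 and 0.329 CPM in C 8, C 11, C 12 and T 1, so it was above 100 CPM in 2 of 4, against 12 of 21 CGA-low libraries.

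A gene is called higher below where every CGA-high library lay above every CGA-low library in log2 CPM, and lower where every one lay below. By this rule 326 genes were higher (2.23% of 14600) and 205 were lower (1.4%). The rule used the same libraries, so these shares are a background for the gene groups and no result. The median log2 difference, CGA-high minus CGA-low, was 4.26 over the 326 higher genes and -1.89 over the 205 lower genes, against -0.02 over all genes. Of the called genes 61.4% were higher. With DESeq2 size factors the split was 403 higher and 150 lower, or 72.9% higher. Without C 12, 515 genes were higher, and without T 1, 359 were lower. A gene with fewer than 4 CGA-low libraries at 1 CPM could pass the filter only through CGA-high libraries, which holds for 65 of the 326. Of these, 19 had no CGA-low library at 1 CPM, as did all of 19 such genes kept, so their call follows from the filter. They include ERVV-2, GPR146, TNFAIP6 and DLK1 below. Others of the 65 named below are IL1RN, IGF2, CGB8, ERVV-1, CCRL2, VLDLR, GJA5 and PAMR1. These had some CGA-low libraries at 1 CPM, but too few to pass without CGA-high ones. Members with fewer than 4 CGA-low libraries at 1 CPM number 6 of 17 in the mesenchyme list, 5 of 20 in the fusion list, 3 each in the hormone and implantation lists, 2 each in the cumulus and imprinted lists and at most 1 in any other, and the signs and medians of these lists carry that selection. Levels below are CPM scaled with TMM factors, and log2 differences are between group means of log2 CPM. In bulk RNA, more cells of a type and more RNA per cell cannot be told apart. CPM takes no account of gene length, so levels are set side by side within a gene alone.

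Among placental hormones and growth factors, CGB8, PGF and TAC3 were higher in the CGA-high libraries, and no member was lower, of 12 kept (30 listed, 11 of them with no matching symbol). The median log2 difference of the 12 was 2.20, with 2.83 within controls and 1.27 within testosterone, and 1.45 without C 11. By library, the list mean in log2 CPM was 3.78 in C 8, 4.85 in C 11, 2.23 in T 1 and 1.97 in C 12. CGA-low libraries ran from 0.15 to 1.98, so C 12 lay inside their range. CGB8, a beta subunit gene of chorionic gonadotropin, stood at 265 CPM in C 8, 344 in C 11, 2.76 in T 1 and 3.79 in C 12, against 0 to 1.03 CPM (median 0.05) in the CGA-low libraries. CGB8 was thus far from even among the 4, with C 8 and C 11 well above C 12 and T 1, which stood close to the CGA-low maximum. The luteinising hormone beta gene LHB, a near-identical relative, reached 27.9 CPM in C 11 and at most 1.80 in the others, and reads between such copies cannot be assigned with certainty. PGF, a vessel growth factor of the placenta, had 4109 CPM in C 8, 368 in C 11, 1306 in T 1 and 202 in C 12. CGA-low libraries had 7.53 to 135 CPM (median 44.0), and the difference was 4.25 (3.29 within controls, 4.95 within testosterone). TAC3, which encodes the placental peptide neurokinin B, had 47.7 CPM in C 8, 27.4 in C 11, 11.2 in T 1 and 23.2 in C 12, against 0 to 5.04 CPM (median 0.3). FSTL3, a binder of activin, overlapped between the sides at 21.8, 37.1, 11.2 and 10.7 CPM in C 8, C 11, C 12 and T 1, against up to 13.4 CPM. CRH, the placental stress hormone, failed the filter with 0.85 CPM in C 8, 9.56 in C 11, 0 in T 1 and 8.78 in C 12, against at most 0.075 in CGA-low libraries.

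**Figure D1:**
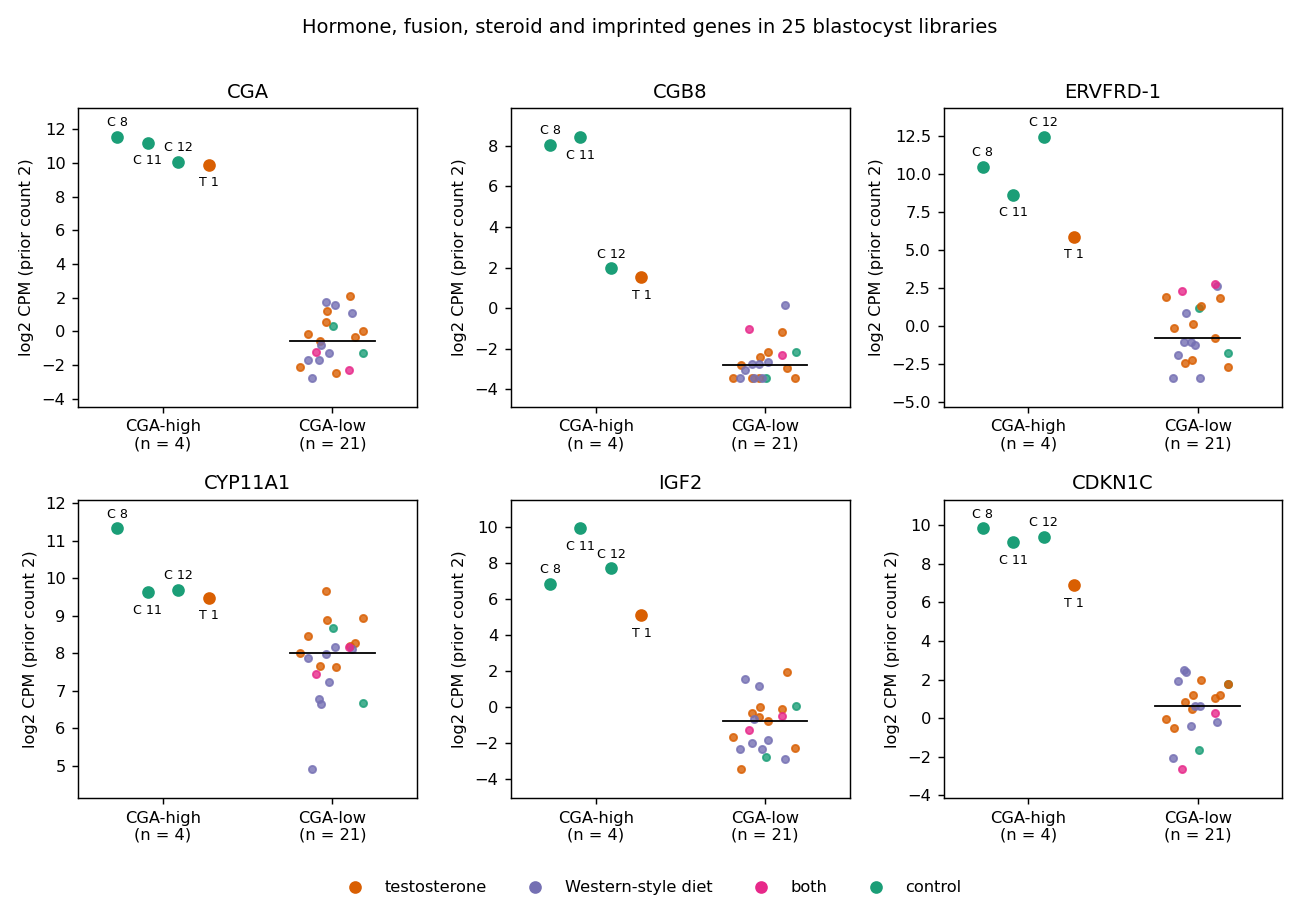
Log2 CPM (vertical axis, prior count 2) of 6 genes in the 4 CGA-high and 21 CGA-low libraries. Points are libraries coloured by treatment of the mother, labels name the CGA-high libraries, and the line is the CGA-low median. CYP11A1 is the gene whose sides overlap, and CGB8 separates C 8 and C 11 from C 12 and T 1.

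Among genes of cell fusion and the syncytiotrophoblast, 3 retroviral envelope genes were high in each of the 4 libraries. Of 20 members kept (24 listed), ERVFRD-1, ERVV-1, ERVV-2, OVOL1, SP6 and GPR146 were higher and none was lower. For ERVV-2 and GPR146 the filter fixes the call. ERVV-1 reached 1 CPM in C 1 and T 10 alone of the CGA-low libraries, so it too passed the filter through CGA-high libraries. The median log2 difference was 2.42 (2.85 within controls, 2.19 within testosterone), with 1.26 without C 8, 1.28 without C 12 and 1.49 where 5 libraries had to reach 1 CPM. ERVFRD-1, which encodes the fusion protein syncytin-2, had 1425 CPM in C 8, 396 in C 11, 58.0 in T 1 and 5464 in C 12. In CGA-low libraries it ran from 0 to 6.76 CPM (median 0.49), so the difference was 9.71, with 10.81 within controls and 6.23 within testosterone. The highest level was thus in C 12 and the lowest in T 1. The other called retroviral envelope genes, also made in placenta, were likewise lowest in T 1. ERVV-2 had 333 CPM in C 8, 95.5 in C 11, 13.7 in T 1 and 127 in C 12, against up to 0.857 in CGA-low libraries, and ERVV-1 had 30.8 CPM in C 8, 44.5 in C 11, 8.41 in T 1 and 27.4 in C 12, against up to 1.72. ERVW-1, whose human protein is syncytin-1, was at most 0.111 CPM in the 4 and did not pass the filter.

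The called transcription factors were OVOL1 and SP6. OVOL1, which in human trophoblast helps cells leave the progenitor state, had 1413 CPM in C 8, 143 in C 11, 493 in T 1 and 589 in C 12, against 0.533 to 56.4 CPM (median 12.7). SP6, a zinc finger factor, had 752 CPM in C 8, 28.8 in C 11, 232 in T 1 and 1006 in C 12, against 0.2 to 13.1 CPM (median 2.68). GCM1, the regulator that switches on syncytins, was chosen after its values were seen. It had 959 CPM in C 8, 63.9 in C 11, 599 in T 1 and 192 in C 12, and CGA-low libraries reached 92.1 CPM (median 20.2), so that C 11 alone lay inside their range. The receptor gene GPR146 had 248 CPM in C 8, 9.89 in C 11, 69.4 in T 1 and 2.08 in C 12, against at most 0.389. CGA-high libraries did not share the whole list, since the lipid transporter MFSD2A, also a receptor for syncytin-2, stood at 82.4 CPM in C 12 and at most 0.996 in C 8, C 11 and T 1, against 0.108 to 67.5 CPM (median 11.7) in CGA-low libraries.

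Of 14 placental steroid genes kept (15 listed), HSD11B2 and FDX1 were higher and none was lower, with a median difference of 1.22 (1.80 and 0.87 within controls and testosterone). CYP11A1, the enzyme that cuts the side chain of cholesterol and starts steroid synthesis, had 2574 CPM in C 8, 794 in C 11, 719 in T 1 and 830 in C 12. CGA-low libraries ran from 30.1 to 811 CPM with a median of 256. All 4 were above that median, but C 11 and T 1 lay within the range, and the difference was 2.20 (2.54 within controls, 1.07 within testosterone). FDX1, the ferredoxin that feeds electrons to CYP11A1, had 125 CPM in C 8, 186 in C 11, 109 in T 1 and 113 in C 12, against 35.0 to 95.5 CPM (median 60.6). HSD3B1, which makes progesterone from pregnenolone, had 564 CPM in C 8, 490.5 in C 11, 550.1 in T 1 and 218 in C 12. In CGA-low libraries HSD3B1 ran from 0.109 to 415 CPM with a median of 11.1, so 3 of the 4 lay above the range. CYP19A1, the aromatase that makes oestrogen, was uneven at 13.6 CPM in C 8, 0.074 in C 11, 75.2 in T 1 and 374 in C 12, against at most 5.90 in CGA-low libraries. C 11 thus had almost no aromatase RNA while it held CYP11A1 and HSD3B1. HSD11B2, which inactivates glucocorticoids in the placenta, had 115 CPM in C 8, 14.4 in C 11, 105 in T 1 and 6.65 in C 12, against at most 5.36. The lipoprotein receptor gene SCARB1 had 14.5 CPM in C 8, 65.1 in C 11, 35.9 in T 1 and 15.1 in C 12, against up to 14.8 CPM. NR5A2, a nuclear receptor gene of pluripotent and steroid-making cells, overlapped between the sides at 8.40 CPM in C 8, 31.7 in C 11, 13.3 in T 1 and 0 in C 12, against 7.66 to 41.4 CPM (median 22.5). Its difference was -2.40, or -0.56 without C 12.

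Trophectoderm and cytotrophoblast regulators had 7 higher and 0 lower of 24 kept (28 listed), and a median difference of 1.63 (1.75 within controls, 2.31 within testosterone, 1.09 without C 8). Averaged over the list, log2 CPM was 7.84 in C 8, 6.31 in C 11, 7.22 in T 1 and 5.14 in C 12. CGA-low libraries ran from 2.65 to 6.61, so C 11 and C 12 lay inside their range. The 7 higher genes were GATA2, TFAP2A, TEAD3, NR2F2, DLX5, MSX2 and BMP4, which are transcription factors of trophoblast apart from the signalling protein BMP4. GATA2 had 5751 CPM in C 8, 948 in C 11, 2132 in T 1 and 1344 in C 12, against 19.2 to 828 CPM (median 457). TFAP2A had 1128 CPM in C 8, 513 in C 11, 294 in T 1 and 1155 in C 12, against 7.88 to 90.8 CPM (median 34.6). The 4 libraries lay above every other one for both factors. NR2F2, an orphan nuclear receptor that in human blastocysts marks maturing trophectoderm, had 160 CPM in C 8, 41.2 in C 11, 240.1 in T 1 and 85.9 in C 12, against 0 to 28.1 CPM (median 4.36), and DLX5 had 137 CPM in C 8, 161 in C 11, 174 in T 1 and 145 in C 12, against 0 to 42.3 CPM (median 11.5). CCKBR, a receptor gene that marks polar trophectoderm of human blastocysts, had 463 CPM in C 8, 586 in C 11, 373 in T 1 and 17.9 in C 12, against at most 25.3 in CGA-low libraries, so C 12 alone lay inside their range.

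Not all trophectoderm genes followed. CDX2, the factor of early trophectoderm, and KRT18, a keratin of its epithelium, were chosen after their values were seen. CDX2 stood at 147 CPM in C 8, 50.3 in C 11, 32.5 in T 1 and 1.56 in C 12, against 30.4 to 288 CPM (median 116). C 12 alone lay below that range, but its low end was set by TWSD 2. The next lowest CGA-low library, T 3, had 67.8 CPM, so C 11 and T 1 were below all CGA-low libraries but TWSD 2. KRT18 stood at 2516 CPM in C 8, 724 in C 11, 2726 in T 1 and 364 in C 12, against 924 to 16254 CPM (median 5858), with C 11 and C 12 below the range.

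Invasive trophoblast genes had 2 higher (ENG and ITGA5) and 0 lower of 18 kept (22 listed), with a median of 1.33 (1.78 within controls, 1.89 within testosterone, 2.40 without C 12). By library, the list mean in log2 CPM was 3.95 in C 8, 5.21 in C 11, 3.40 in T 1 and 2.08 in C 12. CGA-low libraries ran from 0.15 to 3.02, so C 12 lay inside their range. ENG, the co-receptor endoglin of TGF-beta signalling, had 319.8 CPM in C 8, 153 in C 11, 57.0 in T 1 and 80.3 in C 12, against at most 1.57. ITGA5, the fibronectin receptor chain of invading trophoblast, had 124 CPM in C 8, 474 in C 11, 67.2 in T 1 and 82.6 in C 12, against 0 to 34.9 CPM (median 6.56). NOTUM, an extracellular inhibitor of Wnt signalling, had 51.9 CPM in C 8, 9.45 in C 11, 52.6 in T 1 and 134 in C 12, against at most 13.8, and C 11 was the library that overlapped. MMP2, a matrix protease, was above the CGA-low maximum of 58.5 CPM in C 8, C 11 and T 1 (325, 471 and 485) and at 16.3 in C 12. FN1, fibronectin, had 466 CPM in C 8, 9975 in C 11, 699.5 in T 1 and 4.21 in C 12, against 0.701 to 492 CPM (median 38.8), so that C 11 and C 12 lay on opposite ends. Mamu-AG4, named after its values were seen, belongs to the macaque MHC class I family whose AG members are made by trophoblast. It was higher at 167 CPM in C 8, 85.7 in C 11, 48.2 in T 1 and 512 in C 12, against 0 to 11.3 CPM (median 1.57), and reads may be split with near-identical relatives.

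Implantation and cytokine genes had 3 higher and 0 lower of 22 kept (31 listed), with a median of 1.46 (2.07 within controls, 1.21 within testosterone). Averaged over the list, log2 CPM was 4.70 in C 8, 3.79 in C 11, 3.27 in T 1 and 3.33 in C 12. CGA-low libraries ran from -0.32 to 3.51, so T 1 and C 12 lay inside their range. IL1RN, the interleukin-1 receptor antagonist, had a difference of 11.25 and stood at 1087 CPM in C 8, 251 in C 11, 304 in T 1 and 559 in C 12, against at most 1.38 CPM. VEGFA, the vessel growth factor, had 347 CPM in C 8, 215 in C 11, 153 in T 1 and 1151 in C 12, against at most 22.8, and CCRL2, an atypical chemokine receptor, had 19.4 CPM in C 8, 25.9 in C 11, 4.27 in T 1 and 259.5 in C 12, against at most 1.20. IL1R1, the interleukin-1 receptor, overlapped through C 12 alone, with 291 CPM in C 8, 34.0 in C 11, 43.4 in T 1 and 10.1 in C 12, against at most 16.9. PTGS2, the inducible enzyme of prostaglandin synthesis, was at 57.8, 73.6 and 144 CPM in the 3 control libraries and had no count in T 1, against 0 to 8.24 CPM (median 0.128) in CGA-low libraries.

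Of 17 imprinted genes kept (26 listed), which are read from 1 parental copy, IGF2, CDKN1C, DLK1 and ZFAT were higher and none was lower. Their list median was 0.90 (0.56 within controls, 0.81 within testosterone, 0.58 without C 8). IGF2, the fetal growth factor, had 116 CPM in C 8, 984 in C 11, 34.9 in T 1 and 211 in C 12. All CGA-low libraries were at or below 3.75 CPM (median 0.488), a difference of 8.39 (9.50 within controls, 5.92 within testosterone). CDKN1C, an inhibitor of the cell cycle that restrains placental growth in mice, had 916 CPM in C 8, 564 in C 11, 118 in T 1 and 683 in C 12, against 0.067 to 5.57 CPM (median 1.47), a difference of 8.30 (9.41 and 6.01). Both genes were lowest in T 1 among the 4. DLK1, whose call the filter fixes and which was not kept without C 12, was uneven, as C 11 held 297 CPM and the others 2.29 to 3.22, against at most 0.937. ZFAT had 60.4 CPM in C 8, 88.2 in C 11, 27.1 in T 1 and 36.1 in C 12, against at most 17.0. USP29 was at most 1.12 CPM in the 4, against 0 to 17.7 CPM (median 2.72) in CGA-low libraries.

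**Figure D2:**
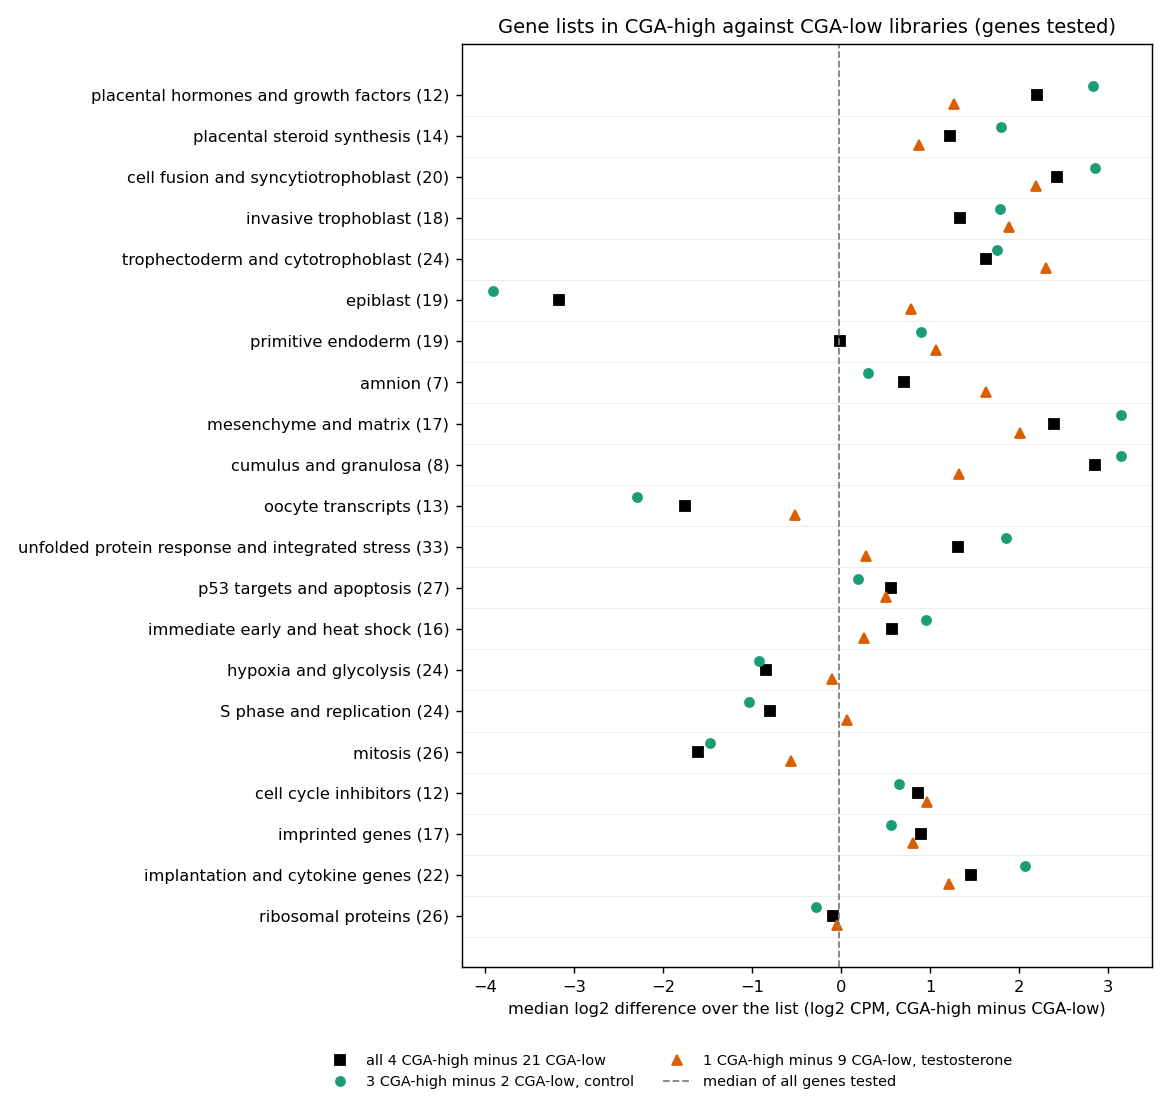
Median log2 difference (horizontal axis, CGA-high minus CGA-low, log2 CPM) of 21 gene lists, with the number of genes kept in brackets. Squares are the pooled difference, circles the difference within controls, triangles that within testosterone, and the dashed line is the median of all genes (-0.02). Epiblast genes lie at -3.16 pooled and -3.90 within controls but at 0.79 within testosterone.

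Pluripotency genes of the epiblast divided the 4. Of 19 kept (22 listed), ESRRB was lower and none was higher, and the list median was -3.16, with -3.90 within controls and 0.79 within testosterone. Without C 11 it was -1.82 and without C 12 -1.93. The mean log2 CPM of the list was 5.05 in C 8, 1.09 in C 11, 6.30 in T 1 and 0.72 in C 12, against 4.57 to 6.45 in CGA-low libraries. C 8 and T 1 were thus inside that range while C 11 and C 12 lay below it. POU5F1, the central pluripotency factor OCT4, had 203 CPM in C 8, 8.38 in C 11, 756 in T 1 and 0.624 in C 12, against 242 to 1020.2 CPM (median 523), with C 8 just under the range. PRDM14, a repressor that guards pluripotency, had 50.8 CPM in C 8, 0.295 in C 11, 124 in T 1 and 0.104 in C 12, against 22.2 to 205 CPM (median 77.9), and SUSD2, a surface marker of naive human pluripotent cells, had 78.4 CPM in C 8, 0.406 in C 11, 261 in T 1 and 0.052 in C 12, against 16.0 to 175 CPM (median 87.2). T 1 lay above the CGA-low maximum for SUSD2. FGF4, the growth factor by which epiblast signals to its neighbours, was at 14.5 CPM in T 1 and at most 0.4 in the 3 control libraries, against 1.12 to 34.7 CPM (median 12.6). ESRRB, a nuclear receptor of naive pluripotency and, in mice, of trophoblast stem cells, was low in all 4, at 2.05 CPM in C 8, 0.148 in C 11, 1.05 in T 1 and 2.44 in C 12, against 14.4 to 101 CPM (median 52.2).

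Primitive endoderm genes had 0 called members of 19 kept (21 listed), and a median difference of -0.01 that changed sign with the scaling (0.09 with DESeq2 size factors). It was 0.90 within controls, 1.07 within testosterone, 1.37 without C 12, -0.92 without C 11, -0.66 without T 1 and -0.09 without C 8. Their mean log2 CPM was 5.04 in C 8, 7.93 in C 11, 5.91 in T 1 and 0.47 in C 12, against 1.30 to 5.66. C 11 and T 1 thus lay above the CGA-low range and C 12 below it. TTR, the carrier protein transthyretin of yolk sac and liver, had 12.6 CPM in C 8, 2152 in C 11, 14.6 in T 1 and 1.35 in C 12, against at most 4.64. APOB, the lipoprotein scaffold, had 15.5 CPM in C 8, 1323 in C 11, 0.394 in T 1 and 0.156 in C 12, against at most 4.59. FRZB, a secreted Wnt antagonist, had 36.1 CPM in C 8, 578 in C 11, 82.1 in T 1 and 1.09 in C 12, against at most 66.2. OTX2 and HNF4A, transcription factors of this lineage, were at 0.052 and 0 CPM in C 12 and at 33.9 and 29.6 in T 1, against medians of 33.7 and 33.3 in CGA-low libraries.

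Mesenchyme and matrix genes had a median difference of 2.39 (3.15 within controls, 2.01 within testosterone) but 0 called of 17 kept (22 listed). The mean log2 CPM was 2.73 in C 8, 7.65 in C 11, 2.60 in T 1 and -0.84 in C 12, against -1.13 to 1.87. C 8, C 11 and T 1 lay above the CGA-low range, with C 11 far the highest. C 12 lay inside it through TWSD 2 alone, since the next lowest CGA-low library, T 3, had -0.72. The median difference was 0.88 without C 11 and 4.11 without C 12. COL3A1, a fibrillar collagen, had 0.6 CPM in C 8, 8508 in C 11, 0.263 in T 1 and 0.312 in C 12, against at most 8.57 in CGA-low libraries. LUM, the matrix proteoglycan lumican, had 0.8 CPM in C 8, 959 in C 11, 3.68 in T 1 and 0.312 in C 12, against at most 2.10, and COL1A1 had 14.4 CPM in C 8, 1220.2 in C 11, 20.1 in T 1 and 1.56 in C 12, against at most 6.88. DCN, decorin, failed the filter because C 11 alone was above 1.27 CPM, at 704 CPM. SNAI2, a regulator of the mesenchymal state, was at 41.5 CPM in C 11 and at most 2.17 in the other 3, while TBX20 was highest in C 12 (73.1 CPM).

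Amnion genes had 0 called of 7 kept (8 listed) and a median of 0.71 (0.30 within controls, 1.63 within testosterone). It was 1.36 without C 11, 1.15 without C 12 and 0.30 without T 1. IGFBP3, which binds insulin-like growth factors, had 93.6 CPM in C 8, 1765 in C 11, 143 in T 1 and 0.104 in C 12, against at most 48.1. HEY1, a Notch target, was highest in C 12 at 485 CPM. Cumulus and granulosa cells surround the egg in the ovary. Of their genes, 8 of 17 were kept, 1 was higher, and the median was 2.85 (3.14 within controls, 1.33 within testosterone, 1.60 without C 11). Mean log2 CPM of this list was 4.57 in C 8, 5.85 in C 11, 3.29 in T 1 and 3.87 in C 12, against -0.32 to 2.26. The higher gene was TNFAIP6, which cross-links hyaluronan, at 28.0 CPM in C 8, 209 in C 11, 47.1 in T 1 and 122 in C 12, against at most 0.743, and the filter fixes its call. Without C 12, TNFAIP6 was no longer kept and HAS2, a maker of hyaluronan, was higher. The list shares CYP11A1, CYP19A1, STAR and INHA with the placental lists and VCAN with the mesenchyme list. Trophoblast makes CYP11A1, CYP19A1 and INHA too. All 8 differences were above 0, and all 4 libraries lay above the CGA-low range of the list mean. Of the 9 genes not kept, LHCGR, PTX3 and EREG had no count in any of the 4, and FSHR and NR5A1 were at most 0.263 CPM. FOXL2 stood at 10.9 CPM and AMH at 8.83 CPM in C 12, against at most 0.119 and 3.05 in CGA-low libraries, and AREG at 3.94 CPM in T 1, against at most 1.42.

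Sperm genes other than SPACA1 were at most 3.07 CPM in the 4 libraries, and SPACA1, the 1 kept of 9, had a difference of -1.49. Blood cell genes had 0 called of 3 kept (12 listed) and a median of -0.52, or -0.82 without C 11, while the haem synthesis gene ALAS2 failed the filter at 45.5 CPM in C 11 and 100.2 in C 12, against at most 0.600 in CGA-low libraries. CD14, a surface marker of monocytes, had 4.60 CPM in C 8, 236 in C 11, 1.91 in T 1 and 0.052 in C 12, against at most 7.78. Of the haemoglobin genes HBA1 had no count in the 4 and HBE1 was at most 2.10 CPM, and PTPRC, the pan-leukocyte gene CD45, was at most 1.84 CPM. Oocyte transcripts, stores of maternal RNA, had 1 lower and 0 higher of 13 kept (20 listed), and a median of -1.75 (-2.29 within controls, -0.52 within testosterone). NLRP7, a maternal-effect gene whose human mutations cause molar pregnancy, was lower at 1571 CPM in C 8, 51.8 in C 11, 2784 in T 1 and 156 in C 12, against 6964 to 14820.4 CPM (median 9362). KHDC3L, a partner of NLRP7 in the egg, had 226 CPM in C 8, 0.664 in C 11, 494 in T 1 and 1.04 in C 12, against 51.4 to 533 CPM (median 227), so C 11 and C 12 lay below the CGA-low range and C 8 and T 1 inside it. These levels of other cell types stand beside the placental genes above, and their part in those results was not tested.

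Stress genes were graded among the 4. Of 33 genes kept (34 listed) of the unfolded protein response and integrated stress, which cells switch on when proteins misfold or amino acids run short, DDIT3, SESN2, VLDLR and CEBPB were higher and none was lower. The list median was 1.32 (1.86 within controls, 0.28 within testosterone, 0.73 without C 12), and mean log2 CPM was 6.68 in C 8, 7.64 in C 11, 6.21 in T 1 and 9.02 in C 12, against 5.20 to 6.18. All 4 were above every CGA-low library, T 1 by little and C 12 by most. DDIT3, which encodes the stress factor CHOP, had 263 CPM in C 8, 297 in C 11, 64.7 in T 1 and 8596 in C 12, against 9.73 to 42.9 CPM (median 18.3). CEBPB, a related leucine zipper factor, had 274 CPM in C 8, 94.1 in C 11, 64.1 in T 1 and 310.1 in C 12, against 4.79 to 20.6 CPM (median 10.8). SESN2, a sensor of leucine, had 250.5 CPM in C 8, 284 in C 11, 229 in T 1 and 1219.8 in C 12, against 3.66 to 215 CPM (median 115). HERPUD1, which takes part in degradation at the endoplasmic reticulum, was in the CGA-low range (up to 231 CPM) in C 8 and T 1 (186 and 111) and above it in C 11 and C 12 (1339 and 3891). The CGA-low maximum was that of TWSD 2, and the next highest, WSD 6, had 126 CPM. C 8 was thus above all CGA-low libraries but TWSD 2. ATF3, a target of the same pathway, had 25.5 CPM in C 8, 119 in C 11, 8.08 in T 1 and 292 in C 12, against 0.2 to 9.31 CPM (median 3.05).

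p53 targets and apoptosis genes had 0 called of 27 kept (28 listed) and a median of 0.56 (0.19 and 0.50 within controls and testosterone). Mean log2 CPM was 5.24 in C 8, 5.33 in C 11, 5.29 in T 1 and 6.56 in C 12, against 3.37 to 5.44, so C 12 alone lay above the CGA-low range. CDKN1A, the cell cycle inhibitor p21, had 554 CPM in C 8, 1414 in C 11, 119 in T 1 and 4113 in C 12, and the CGA-low maximum of 123 CPM was above T 1 alone. PLK2, a p53-induced kinase, had 93.8 CPM in C 8, 643 in C 11, 78.1 in T 1 and 8715 in C 12, against 11.6 to 125 CPM (median 29.3), so C 8 and T 1 lay inside the range. Of 16 immediate early and heat shock genes kept (21 listed) 1 was higher, JUNB, a subunit of the AP-1 factor, at 345 CPM in C 8, 259.7 in C 11, 71.4 in T 1 and 1137 in C 12, against 9.09 to 62.8 CPM (median 36.8). The list median was 0.57 (0.95 within controls, 0.26 within testosterone, 0.24 without C 11 and 0.90 without T 1).

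Hypoxia and glycolysis genes had 1 higher, VEGFA, and 0 lower of 24 kept (26 listed), with a median of -0.84 (-0.92 within controls, -0.10 within testosterone, -0.11 without C 12). EPAS1, the hypoxia factor HIF2-alpha, had 27.6 CPM in C 8, 96.3 in C 11, 16.4 in T 1 and 50.1 in C 12, against up to 23.9, so that T 1 alone lay inside the range. The hexokinase HK2, the first enzyme of glycolysis, had 162 CPM in C 8, 28.2 in C 11, 352 in T 1 and 82.1 in C 12, against 349 to 1115 CPM (median 657), with T 1 just inside the range. KDM3A, a histone demethylase gene induced by low oxygen, had 441 CPM in C 8, 135 in C 11, 53.8 in T 1 and 941 in C 12, against 18.2 to 79.4 CPM (median 36.1).

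**Figure D3:**
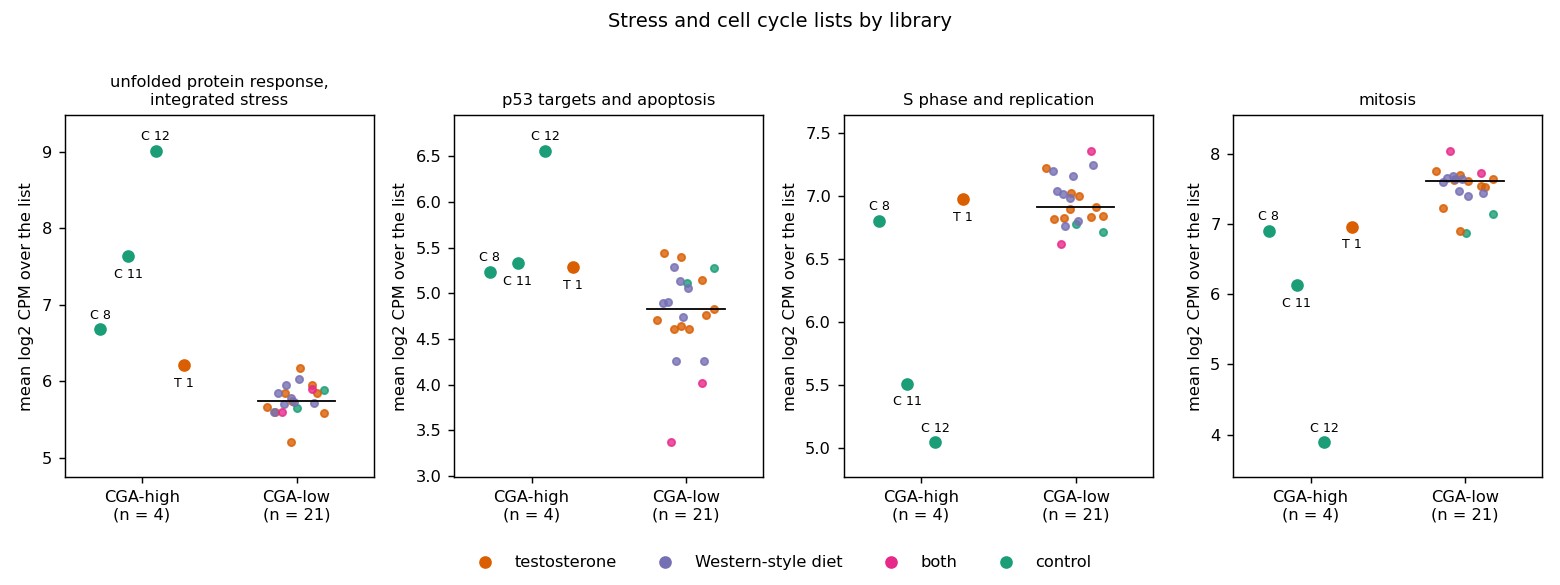
Mean log2 CPM (vertical axis) over 4 gene lists in the 4 CGA-high and 21 CGA-low libraries. Points are libraries coloured by treatment of the mother, labels name the CGA-high libraries and the line is the CGA-low median. The unfolded protein response is graded over the 4 libraries, and S phase genes are low in C 11 and C 12 alone.

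Mean levels of cell division genes ran in the opposite order over the 4. Of 26 mitosis genes kept, NUSAP1, PLK1, KIF23 and BIRC5 were lower and none was higher, with a median difference of -1.61 (-1.47 within controls, -0.56 within testosterone, -0.85 without C 12), and 25 of the 26 differences were below 0. Mean log2 CPM was 6.89 in C 8, 6.13 in C 11, 6.96 in T 1 and 3.89 in C 12, against 6.87 to 8.04. C 8 and T 1 stood at the low end of the CGA-low range and C 11 and C 12 below it. NUSAP1, which bundles spindle microtubules, had 51.3 CPM in C 8, 55.7 in C 11, 53.5 in T 1 and 8.21 in C 12, against 125 to 221 CPM (median 157). PLK1, the polo-like kinase of mitotic entry, had 305 CPM in C 8, 201 in C 11, 385 in T 1 and 53.3 in C 12, against 398 to 1075 CPM (median 631), and BIRC5, survivin, had 114 CPM in C 8, 111 in C 11, 116 in T 1 and 11.5 in C 12, against 163 to 319 CPM (median 219). MKI67, the proliferation marker Ki-67, had 133 CPM in C 8, 147 in C 11, 138 in T 1 and 0.26 in C 12, against 101 to 382 CPM (median 211). C 12 was thus almost without MKI67 and the other 3 were inside the range. ASPM, a spindle pole gene, had 41.6 CPM in C 8, 27.5 in C 11, 32.7 in T 1 and 0.104 in C 12, against 14.5 to 119 CPM (median 66.6).

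S phase and replication genes had 1 lower, the replication licensing gene CDC6, and 0 higher of 24 kept (25 listed), with a median of -0.80 (-1.03 within controls, 0.06 within testosterone, -1.24 without T 1). Mean log2 CPM was 6.81 in C 8, 5.51 in C 11, 6.98 in T 1 and 5.04 in C 12, against 6.62 to 7.36, so C 11 and C 12 lay below the range. CDC6 had 89.1 CPM in C 8, 65.1 in C 11, 92.9 in T 1 and 17.9 in C 12, against 97.7 to 254 CPM (median 148). MCM3, a subunit of the replicative helicase, had 379 CPM in C 8, 126 in C 11, 525 in T 1 and 8.16 in C 12, against 444 to 1408 CPM (median 668). MCM7, another helicase subunit, and PCNA, the clamp of replication, were chosen after their values were seen and were high in C 12, at 2077 and 1558 CPM, against CGA-low maxima of 550.3 and 514. Among 12 cell cycle inhibitors kept (13 listed) CDKN1C and BTG1 were higher and CDKN2D was lower, with a median of 0.86 (0.65 within controls, 0.97 within testosterone). BTG1, an antiproliferative gene, had 567 CPM in C 8, 801 in C 11, 428 in T 1 and 3074 in C 12, against 47.0 to 375 CPM (median 142). CDKN2D, an inhibitor of CDK4 and CDK6, had 19.5 CPM in C 8, 6.90 in C 11, 28.1 in T 1 and 17.8 in C 12, against 34.4 to 114 CPM (median 67.7). Ribosomal protein genes had 0 called of 26 kept (30 listed) and a median of -0.09, which changed sign with DESeq2 size factors (0.06) and without C 11 (0.03). The 7 Y-linked genes kept of 9 had 0 called and a median of -1.42, with 0.09 without T 1, -0.14 without C 12, -2.80 without C 11 and -2.97 without C 8.

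Over all genes with a symbol and at least 10 CPM in each CGA-high library, the 15 higher genes with the largest differences were IL1RN, FST, SLC40A1, ERVFRD-1, BHLHE40, PTGIS, ENG, GJA5, NEURL1, TNFAIP6, ERVV-2, IGF2, CDKN1C, PAMR1 and ZNF750. Log2 differences of genes near 0 counts depend on the prior count of 2 added before the log. FST, follistatin, which binds activin, had 2364 CPM in C 8, 552 in C 11, 532 in T 1 and 3642 in C 12, against 0.036 to 11.1 CPM (median 1.05). SLC40A1, ferroportin, the exporter of iron from cells, had 9961 CPM in C 8, 1355 in C 11, 1583 in T 1 and 6621 in C 12, against 0.182 to 31.2 CPM (median 3.78), a difference of 9.88 (10.65 within controls, 9.22 within testosterone). For both genes C 8 and C 12 held several times the level of C 11 and T 1. BHLHE40, a repressor of the circadian and stress systems, had 661 CPM in C 8, 388 in C 11, 149 in T 1 and 1772 in C 12, against at most 13.3, and PTGIS, prostacyclin synthase, had 438 CPM in C 8, 57.6 in C 11, 209.6 in T 1 and 77.2 in C 12, against at most 2.78. GJA5, the gap junction protein connexin 40, had 190.1 CPM in C 8, 26.3 in C 11, 29.8 in T 1 and 209.6 in C 12, against at most 3.70. NEURL1, a ubiquitin ligase, had 1925 CPM in C 8, 446 in C 11, 82.3 in T 1 and 684 in C 12, against at most 4.60. ZNF750, a factor of epidermal differentiation, had 413 CPM in C 8, 67.0 in C 11, 81.0 in T 1 and 538 in C 12, against at most 29.0, and PAMR1 had 67.8 CPM in C 8, 149 in C 11, 16.4 in T 1 and 104 in C 12, against at most 2.93.

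The 15 lower genes with the largest differences, at 10 CPM or more in every CGA-low library, were ESRRB, SLC12A3, VWA1, GLT1D1, ADTRP, TUBB4A, BRDT, SLC18B1, NLRP7, ATP6V1B1, PSRC1, AK4, TRIM75, SLC25A21 and ACOX2. SLC12A3, the sodium chloride cotransporter, had 38.0 CPM in C 8, 0.443 in C 11, 16.2 in T 1 and 0.364 in C 12, against 50.2 to 326 CPM (median 149). VWA1, a matrix protein gene, had 14.6 CPM in C 8, 62.0 in C 11, 72.2 in T 1 and 10.9 in C 12, against 88.9 to 4823 CPM (median 1129). AK4, a mitochondrial adenylate kinase, had 139 CPM in C 8, 67.8 in C 11, 259 in T 1 and 15.0 in C 12, against 513 to 2251 CPM (median 1203). Each was lower in all 4, and C 12 was the lowest of the 4 for all 3 genes. ATP6V1B1, a subunit of the proton pump V-ATPase, had 204 CPM in C 8, 1.55 in C 11, 41.4 in T 1 and 25.5 in C 12, against 296 to 846 CPM (median 423). Within testosterone the differences of these 15 genes ran from -5.53 (ESRRB) to -1.02 (PSRC1), and within controls from -6.33 (ESRRB) to -4.11 (ACOX2). Among the 326 higher genes the highest of the 4 was C 12 for 132, C 8 for 106, C 11 for 64 and T 1 for 24. T 1 was the lowest for 127 of them and C 11 for 100.

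Beside these shared genes, the 4 libraries differed among themselves. With 1 library each, the differences are descriptions without a replicate check. C 12 had 825 genes (5.65% of 14600) at least 4-fold above the next of the other 3 and 1234 (8.45%) at least 4-fold below. C 11 had 540 above (3.7%) and 166 below (1.14%). C 8 had 93 above (0.637%) and 9 below (0.0616%), and T 1 had 49 above (0.336%) and 88 below (0.603%). C 8 and T 1 were thus the less divergent pair, and C 12 the most divergent. Without T 1 the counts of C 8 were 418 above and 133 below, without C 8 those of T 1 were 400 and 290, and without C 12 C 11 had 454 below.

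The 6 genes of C 11 highest above the other 3 were COL3A1, SLC6A2, SULT1C4, TGFBI, LUM and PLG. PLG, plasminogen, was at 448 CPM in C 11 and at most 1.75 in the other 3, and TGFBI, a matrix protein, at 253 and at most 0.9. SULT1C4, a sulfotransferase, was at 228 CPM in C 11 and SLC6A2, the noradrenaline transporter, at 69.5. The 4 lowest were PGGT1B, IRX2, ENOX2 and BCLAF3, with at most 0.037 CPM in C 11, against at least 17.9 CPM in each of the other 3. GPC3, a surface proteoglycan whose loss causes overgrowth, was named after its values were seen. It had 84.0 CPM in C 8, 1109 in C 11, 83.2 in T 1 and 0.052 in C 12, against at most 12.4 in CGA-low libraries.

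C 12 had the highest stress gene levels and lacked some transcripts that all other libraries held. Its 6 highest genes were HSF4, GRPR, FOLR2, BCL6, ABL2 and MFSD2A. ABL2, a tyrosine kinase, was at 496 CPM in C 12, at most 3.85 in the other 3 and at most 11.1 in CGA-low libraries, and BCL6, a repressor of transcription, at 128 against at most 0.75 in the other 3. HSF4, a heat shock factor of the lens, was at 43.3 CPM in C 12 and had no count in the other 3. The 4 lowest were GPT2, GNB1, HAND1 and CAVIN2. GNB1, a G protein subunit made in most cells, had 215 CPM in C 8, 155 in C 11, 175 in T 1 and 0.052 in C 12, against 148 to 357 CPM (median 217). HAND1, a factor of trophoblast and extra-embryonic mesoderm, had 539 CPM in C 8, 502 in C 11, 584 in T 1 and 0.416 in C 12, against 0.224 to 1371 CPM (median 60.2). C 12 was thus low beside the other 3. Of the CGA-low libraries C 1 alone lay below C 12, and the next lowest, T 3, had 13.9 CPM. GAPDH, of glycolysis, chosen after its values were seen, had 2429.9 CPM in C 8, 1866 in C 11, 3175 in T 1 and 73.3 in C 12, against 2233 to 4194 CPM (median 2879).

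C 8 and T 1, whose mean level of epiblast genes lay in the CGA-low range, each stood apart in fewer genes. The 6 highest genes of C 8 were PSCA, UTY, SCARA5, SOX8, PKP1 and EGFL6. PSCA, a surface antigen of epithelia, was at 72.3 CPM in C 8 and at most 0.26 in the other 3. PKP1, a desmosome protein, was at 93.3 and at most 4.01. UTY, a Y-linked demethylase gene, had 25.6 CPM in C 8, 0.627 in C 11, 0.197 in T 1 and 0 in C 12. The 4 lowest genes of C 8 were AQP3, RAI1, TOM1L2 and ECM1, with AQP3, a water and glycerol channel, at 1.90 CPM in C 8 and at least 18.0 in the other 3. T 1 was highest for DRP2, PHF24, FGF4, NLRP9, SLC4A11 and MAMLD1. NLRP9, a maternal gene, was at 66.5 CPM in T 1, at most 2.85 in the other 3, and 0.732 to 129.7 CPM (median 43.0) in CGA-low libraries, so that C 11 alone lay below their range. T 1 was lowest for PTGS2, CAPN6, EFNB1 and VGLL3, each with no count in T 1. CAPN6, a calpain made in placenta, had 51.2 CPM in C 8, 417 in C 11, 0 in T 1 and 30.0 in C 12, against at most 5.03 in CGA-low libraries. VGLL3, a partner of TEAD factors, had 41.1 CPM in C 8, 38.1 in C 11, 0 in T 1 and 11.6 in C 12, against at most 1.47. Both were thus held by the 3 control libraries of the 4 and not by T 1, which follows from the rule that chose them. In the CGA-low controls C 1 and C 2, CAPN6 was at most 2.01 CPM and VGLL3 at most 0.194.

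**Figure D4:**
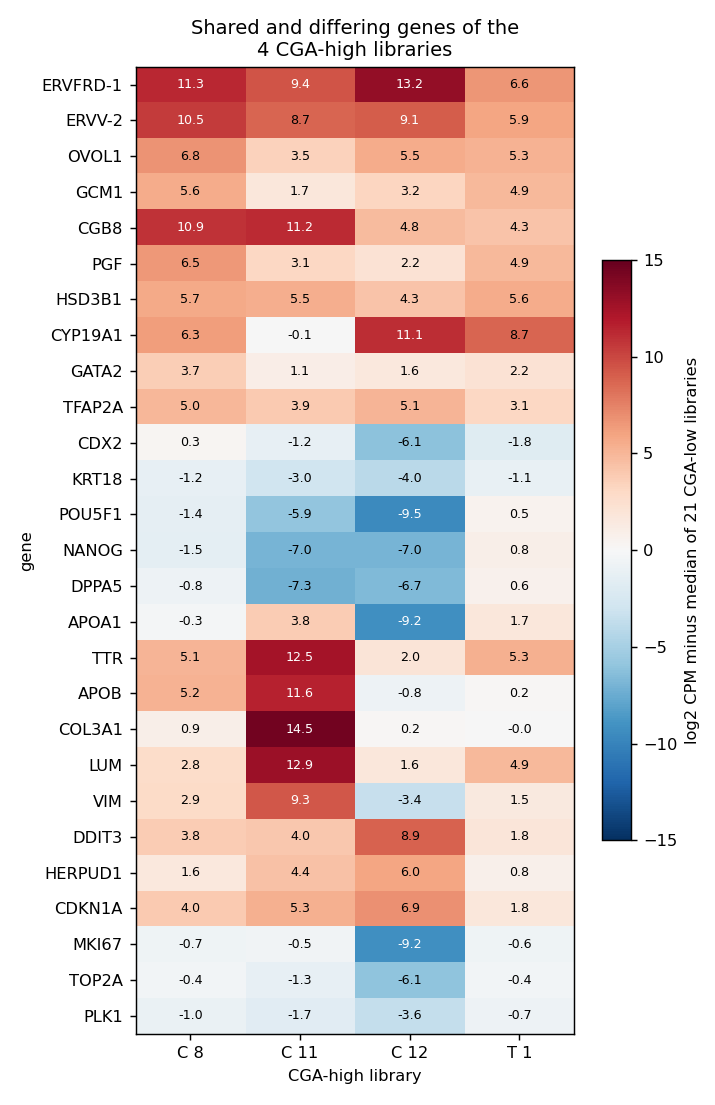
Log2 CPM minus the median of the 21 CGA-low libraries (colour and number in each cell) for 27 genes (rows) in the 4 CGA-high libraries (columns). Rows run through fusion and hormone genes, steroid and trophectoderm genes, pluripotency, endoderm, matrix, stress and cell cycle genes. Fusion genes are above 0 in each column, POU5F1 and NANOG are far below 0 in C 11 and C 12 alone, and COL3A1, LUM and TTR stand out in C 11. GCM1, CDX2, KRT18, NANOG, DPPA5, APOA1 and VIM were chosen after their values were seen.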

How the data were processed

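RNA of rhesus macaque blastocysts was sequenced in 25 libraries of 4 treatment groups. The authors deposited whole-number counts per gene for 35395 genes, and the analysis started from these counts. Per the submitters' processing notes, reads were checked with FastQC 0.11.8, trimmed with Trimmomatic 0.39 and aligned with STAR 2.7.0, with Mmul_10 among the genome builds. The counting tool, annotation release and use of strand are unknown here, as the sources used do not give them, so overlapping, antisense and near-identical genes stay uncertain. A gene symbol was available for 24173 genes. Of the rows, 6270 carried a symbol found in more than 1 row. For list members and genes chosen by symbol, the row with most counts was used, and other rows of that symbol are not described. In the shallowest library 1 CPM is 14.2 counts, and values near 0 carry that counting error.

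Counts were scaled with TMM factors of edgeR 4.0.16 (R 4.3.3) and turned into log2 CPM with a prior count of 2, and a gene was kept where 4 or more libraries had 1 CPM or more. Plain CPM of CGA placed the libraries, and the side they fell on was set by that measured value, so no test was run between sides. A gene was called where all libraries of one side lay above all of the other. The procedure was tested with Python 3.11.15 and pandas 2.3.3 on simulated counts, where planted changes were equal in all 4 CGA-high libraries. The real CGA-high libraries differ among themselves, so that check does not cover uneven genes. The 24 gene lists and the members were chosen with earlier results of these data known. Genes were named by rule. They are the markers ERVFRD-1, CYP11A1, IGF2 and CDKN1C, up to 5 members of a list with the largest difference and those called, the 15 higher and 15 lower genes with the largest difference, and, all at 10 CPM or more in the higher libraries, for each CGA-high library the 6 genes highest above and the 4 lowest below the other 3. Alternatives were scaling by library totals or by size factors of DESeq2 1.42.0, other filters and prior counts, single treatments, other folds, and leaving out each library. The list counts without C 12 were added after seeing the data.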

Additional observations from a re-analysis of the deposited data

Results flagged for a closer look

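Of 181 named genes at 10 CPM or more in at least 1 CGA-high library, 29 had 1 of the 4 libraries far from the rest. For each, the gap to the nearest of the other 3 was divided by the whole range in log2 CPM and exceeded Dixon's 95% value for 4 samples. Chance alone passes about 1 in 20 groups, and genes named because a library stood apart pass by their choice. C 12 was the library set apart for 17 genes, C 11 for 9, T 1 for 2 and C 8 for 1. Over all 14600 genes too, C 12 and C 11 differed most by the 4-fold rule. C 12 had 5.65% above and 8.45% below the other 3, and C 11 had 3.7% and 1.14%. The share passing Dixon's value over all genes is not given, so the 29 are no result about the named genes.

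C 12 stood apart by low values for genes of cell division and some others. The gap was 0.984 of the range for MKI67, 0.981 for BIRC5, 0.957 for NUSAP1, 0.923 for ASPM and 0.844 for TOP2A, all of mitosis. It was 0.882 for MMP2, 0.871 for CCKBR and 0.853 for HSD3B1, where C 12 was also the lowest. Chosen for standing low in C 12 were HAND1 (0.979), GNB1 (0.955), GPT2 (0.932) and CAVIN2 (0.885). C 12 was the high library for the stress gene SESN2 (0.871), for ATP6V0D2 (0.946), named after its values were seen, and for HSF4, GRPR and FOLR2, where the other 3 were equal at 0 and the share was 1.

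C 11 was the high library for COL3A1 (0.934), DLK1 (0.931) and SLC6A2 (1). It was also the high one for BAMBI, a decoy receptor of TGF-beta signalling (0.850), and the low one for ATP6V0A4 (0.964), named after its values were seen, and for the genes chosen for it, BCLAF3 (0.966), ENOX2 (0.964), IRX2 (0.922) and PGGT1B (0.917). C 8 was apart for CYP11A1 (0.888), with the highest level. T 1 was apart for PTGS2 (0.876), with no count, and for DRP2 (1), which it alone held.

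For 4 genes the CGA-high libraries lay on opposite sides of their own treatment's CGA-low libraries, all above in one treatment and all below in the other. The log2 difference within controls minus that within testosterone was 8.61 for EFNB1, a membrane ligand of Eph receptors. It was -7.77 for SUSD2, -5.02 for DRP2 and -2.59 for MCM5, a helicase subunit. For DRP2 the side in controls rests on values near 0, with no count in C 8, C 11 and C 12 against 0.056 CPM in C 1 and 0.13 in C 2. For EFNB1 the side in testosterone does so too, with no count in T 1 against 0.089 CPM in T 11. EFNB1 and DRP2 were named because T 1 was the lowest or the highest of the CGA-high libraries, so their differences between treatments carry that choice. The testosterone side rests on T 1 alone, and the difference between treatments was not tested for any of the 4 genes.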

How the results depend on the processing

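No paired analysis was possible because no result comes from a test and no replicate numbers pair the sides. Of the summary values recomputed under each alternative, 1113 stayed close, 52 moved and 1 reversed. For single genes and list counts 5706 stayed close and 79 moved. Close means within 1.5 times for counts of called genes, and within the standard deviation among pairs for mean correlations. For medians and differences it means within the standard deviation among the 4 CGA-high libraries. Smaller medians could thus change sign and count as close, as for primitive endoderm, ribosomal and Y-linked genes. With library totals, 287 genes were higher and 232 lower, and 268 and 184 of the original calls were among them; with DESeq2 size factors 326 and 150 were. Library totals gave 453 genes above for C 12, and 76 above and 54 below for T 1. The 5-library filter moved the fusion median to 1.49. With no filter, medians were 1.21 for cumulus, -0.12 for sperm and 0.73 for implantation genes, and mean correlations were 0.867 among CGA-high, 0.873 across sides and 0.928 among CGA-low libraries. A prior count of 0.5 gave -2.21 for sperm. Within controls, medians were 1.80 for steroid, -0.22 for sperm and 0.95 for immediate early genes. Within testosterone, the epiblast median reversed to 0.79, and amnion was 1.63, cumulus 1.33 and oocyte -0.52. At 2-fold, genes above and below were 378 and 73 for C 8, 1242 and 515 for C 11, 2031 and 1985 for C 12, and 278 and 286 for T 1. At 8-fold they were 22 and 3, 244 and 85, 288 and 719, and 20 and 33 in that order. Leaving out each library in turn, higher genes ran from 327 to 515 (515 without C 12, 476 without T 1, 464 without C 11, 381 without C 8) and lower genes from 205 to 359 (359 without T 1), since fewer libraries have to be separated. Over the same settings medians ran from 1.03 to 1.67 for steroid genes, from 1.26 to 2.52 for fusion genes and from 1.60 to 3.60 for cumulus genes. Genes above and below then ran from 90 to 418 and from 9 to 133 for C 8 (highest without T 1), from 533 to 783 and from 166 to 454 for C 11 (454 without C 12), from 819 to 1112 and from 1233 to 1654 for C 12, and from 48 to 400 and from 88 to 290 for T 1 (highest without C 8). Moves beyond 1.5 times were also 226 above and 26 below for C 8 without C 11, 168 and 43 for C 8 without C 12, 286 below for C 11 without T 1, 101 above and 182 below for T 1 without C 11, and 199 below for T 1 without C 12. Without C 12, list counts changed to 3 higher for steroid, 3 for invasive, 8 for trophectoderm, 1 each for primitive endoderm, amnion and mesenchyme, and 4 for implantation genes. In the fusion list SDC1 and DYSF then took the place of ERVV-2 and GPR146, which no longer passed the filter, and likewise HAS2 that of TNFAIP6 in the cumulus list and GNAS that of DLK1 in the imprinted list. The cause was not tested beyond the fewer libraries and genes stated. Counts per gene limit genes near 1 CPM.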

Other observations

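The families below were chosen by gene symbol after their values were seen. Some genes of mitochondria were lower in the CGA-high libraries. Of 66 mitochondrial ribosomal protein genes kept, which build the organelle's own translation machine, 10 were lower (among them MRPL24, MRPL3 and MRPS31) and 0 were higher, against 1.4% lower over all genes. Their mean log2 CPM was 5.85 in C 8, 5.51 in C 11, 5.95 in T 1 and 5.42 in C 12, against 5.94 to 7.42 in CGA-low libraries. C 8, C 11 and C 12 thus lay below that range and T 1 at its low end. The median log2 difference was -0.90 (-1.24 within controls, -0.62 within testosterone), and 62 of 66 differences were below 0. Other scalings gave -1.04 with library totals and -0.75 with DESeq2 size factors.

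Of 14 genes of ATP synthase, which makes ATP in mitochondria, ATP5F1A and ATP5F1C were lower and 0 were higher, and all 14 differences were below 0, with a median of -0.70 (-1.28 within controls, -0.45 within testosterone). The mean level of C 11 and C 12 lay below the CGA-low range, C 8 was inside it and T 1 just below. TWSD 2 and C 12, which lacked many common transcripts, were kept in these values.

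Genes of the vacuolar ATPase, the proton pump of lysosomes and some cell surfaces, differed by subunit. Of 15 kept, ATP6V0D1 was higher and ATP6V1B1 and ATP6V0A4 were lower, with a median of -0.12 that changed sign with DESeq2 size factors (0.03). ATP6V0A4 had 178 CPM in C 8, 0.96 in C 11, 215 in T 1 and 179 in C 12, against 237 to 573 CPM (median 369). ATP6V0D2 had 0.35 CPM in C 8, 0.258 in C 11, 0.263 in T 1 and 26.6 in C 12, against 9.82 to 164 CPM (median 74.8), so C 12 alone was inside the range.

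The microRNA precursor gene mml-mir-675, whose human counterpart lies within the imprinted RNA gene H19, was also chosen after its values were seen. It had 54.3 CPM in C 8, 60.9 in C 11, 23.8 in T 1 and 25.3 in C 12, against 0 to 8.08 CPM (median 1.67), so it was higher in all 4, as was IGF2, the neighbour of H19 in humans and mice. Counts over a precursor come from the RNA of these libraries and do not measure the mature microRNA.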
